A study of Mus musculus with 4 samples.

Results

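The genes described here are 6 genes of neutrophil recruitment and of the neutrophil cytosol, measured in mouse liver. They are the chemokine genes Cxcl1, Cxcl2 and Cxcl5, the chemokine receptor gene Cxcr2, and the calcium-binding protein genes S100a8 and S100a9. They were chosen by name, and all 6 were found among the 24346 gene symbols of each library. Male C57BL/6 mice, 8 weeks old when the diet began, received for 3 weeks a steatohepatitis-inducing diet (NASH diet) rich in fat, cholesterol and sucrose, to which bile salt was added. In the control group (n = 2 libraries) nothing more was added, and the diet of the 7KC group (n = 2) contained 7-ketocholesterol (7KC), an oxysterol formed from cholesterol. No group on ordinary chow is part of these data, so every value stands against livers that were already on the NASH diet. The labels number the samples but do not say that they came from separate animals, so p-values measure the spread between these samples only.

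Neutrophils are short-lived granulocytes that leave the blood along gradients of CXC chemokines. Cxcl1, Cxcl2 and Cxcl5 belong to the chemokines with a glutamate-leucine-arginine (ELR) motif ahead of the CXC cysteines, and they signal through Cxcr2 on neutrophils. In the liver they can be made by hepatocytes, stellate cells, endothelium and macrophages. S100a8 and S100a9 form calprotectin, the most abundant protein pair of the neutrophil cytosol, which monocytes also carry and which is a ligand of Toll-like receptor 4.

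Cxcl5, Cxcl1 and Cxcl2 lie in 1 chemokine cluster on chromosome 5 of mm10, all on the plus strand. Cxcl5 spans 90759360 to 90761624, Cxcl1 spans 90891241 to 90893115, and Cxcl2 begins 10.8 kb beyond it and spans 90903871 to 90905938. S100a8 (chromosome 3, 90668978 to 90670035, plus strand) and S100a9 (90692632 to 90695721, minus strand) lie 22.6 kb apart on opposite strands. Cxcr2 spans 74153989 to 74161246 on chromosome 1, plus strand. None of the 6 overlaps another annotated gene. The promoters of the neighbours Cxcl1 and Cxcl2 are shown because both hold the same NF-κB letters while their log2 changes between the diets were -0.33 and 0.69, neither past the threshold. Each sequence is the 150 bases before the RefSeq start site, 5′ to 3′ on the plus strand. The gene spans above are those of GENCODE M21, whose starts differ, so both sequences end inside these spans. Capitals mark the match to GGGAATTTCC, letters that fit the NF-κB consensus.
Cxcl1 promoter, chr5:90891095-90891244 (GRCm38.p6): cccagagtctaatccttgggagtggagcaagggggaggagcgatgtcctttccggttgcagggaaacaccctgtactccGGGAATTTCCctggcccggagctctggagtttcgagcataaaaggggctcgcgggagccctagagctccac
Cxcl2 promoter, chr5:90903749-90903898 (GRCm38.p6): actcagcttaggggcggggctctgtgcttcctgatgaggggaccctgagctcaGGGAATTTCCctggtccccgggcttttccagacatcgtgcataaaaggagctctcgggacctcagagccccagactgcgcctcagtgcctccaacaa

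The match lay at positions -71 to -62 in Cxcl1 and -97 to -88 in Cxcl2, where -1 is the base before the start site, and it begins the longest run shared by the 2 sequences, 14 bases. These letters were taken from that run, where they fit the NF-κB consensus, after the sequences had been seen. Searched on both strands, these letters were in 29 of 32851 RefSeq promoter windows of 300 bases (0.0883%). Windows were found for 5 of the 6 genes, and none for Cxcl5. The TATA box letters TATAAA, in 13.6% of all windows, lay at positions -30 to -25 in S100a8 and began at the annotated start base in S100a9. The C/EBP letters TTGCNNAA, in 10.8% of windows, lay at positions -236 to -229 in S100a9. The Cxcr2 window had a match to none of the 3 motifs. A match is a description of letters and not evidence of binding.

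The libraries held an estimated 13650000 to 17150000 mapped reads, recovered from the steps of low FPKM values (fragments mapped to a gene, scaled to its exon length and to the library's total). Between 73.6% and 75.4% of low values came out within 0.1 of a whole read. The liver markers were present as the labels state: Alb, the serum albumin gene, stood at 19000 to 41500 FPKM. A gene listed at exactly 0 may be a failed estimate and is described as listed at 0 only. In bulk tissue, fewer cells of a type and less RNA per cell cannot be told apart.

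Adding 7KC to the NASH diet was followed by no change past the threshold in any of the 5 genes that could be tested. The comparison asked whether hepatic expression of these genes differed between the 2 diets. With limma on log2(FPKM + 0.5), 0 of 5 genes passed an adjusted p under 0.05, against 0.504% of the 12299 genes tested (0.48% higher and 0.0244% lower in the 7KC group), those with a mean of 0.5 FPKM or more. At an unadjusted p under 0.05 there were 2, Cxcl2 and S100a9, both higher, against 17.8% of all tested genes (12% higher and 5.81% lower). In the same 2 genes the groups did not overlap and the 7KC values were the higher ones, as in 25.1% of all tested genes. A further 27.4% of tested genes were lower without overlap and 0 of the 5 genes were, so 52.5% of tested genes and 2 of 5 here did not overlap in one direction or the other. Cxcr2 was under the filter and is given as values only. With 2 libraries against 2, the smallest two-sided p that exact permutation allows is 0.33, and Cxcl2 and S100a9 had that value.

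**Figure D1:**
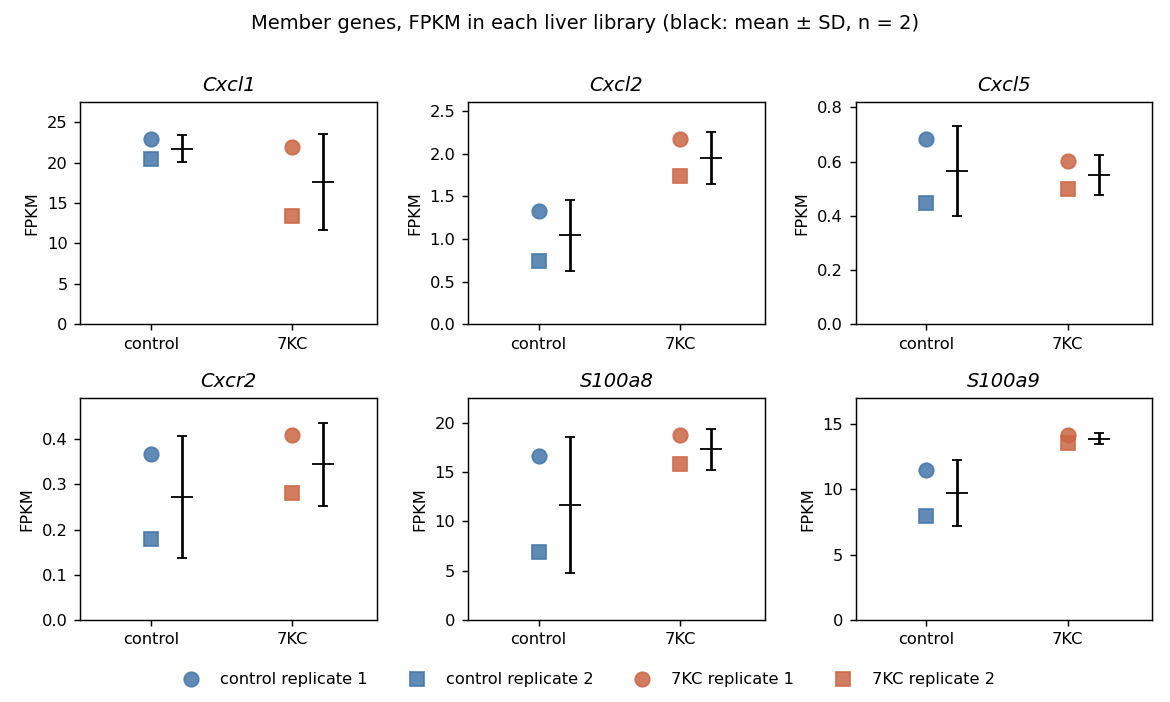
FPKM of the 6 genes in each liver library, with the y axis from 0 in each panel, circles for replicate 1 and squares for replicate 2, and black bars for the mean ± SD (n = 2). The 7KC points lie above the control points without overlap in Cxcl2 and S100a9, the groups overlap in the other genes, and control replicate 2 is the lowest library in 5 of the 6 genes.

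Among the ligands, Cxcl1, a major neutrophil chemokine of mouse liver, had the highest FPKM, a level per length, of the 6 genes in every library but 7KC replicate 2. Its FPKM was 22.9 and 20.5 in control replicates 1 and 2, against 21.9 and 13.4 in 7KC replicates 1 and 2. The groups overlapped, and the lowest value was that of 7KC replicate 2. The mean was 21.7 ± 1.65 FPKM (SD, n = 2) in the control group and 17.6 ± 5.99 FPKM (SD, n = 2) in the 7KC group. The log2 change was -0.33 (SE 0.24, 95% interval -0.94 to 0.28, limma adjusted p 0.513), and without 7KC replicate 2 it was 0.01.

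Cxcl2, a second Cxcr2 ligand, made mostly by activated macrophages and neutrophils, was far lower. Its FPKM was 1.33 and 0.744 in control replicates 1 and 2, against 2.17 and 1.74 in 7KC replicates 1 and 2. The 7KC values were higher without overlap, and the ratio of the means was 1.88. The log2 change was 0.69 (SE 0.24, 95% interval 0.08 to 1.31, limma adjusted p 0.241). The values rest on few reads, 20 and 9 (control) and 26 and 21 (7KC), recovered within 0.054 of whole numbers. For 9 reads the exact 95% Poisson interval is 4.12 to 17.1, and it reaches those of both 7KC libraries. Such intervals cover counting error only. Of the 75-base stretches of its annotated transcripts, the read length used, 4.57% also occur in Cxcl3, a close relative, and Cxcl3 was listed at 0 in 3 libraries and at 0.0895 FPKM in 7KC replicate 2.

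Cxcl5, a ligand best known from epithelial cells, had an FPKM of 0.683 and 0.448 in control replicates 1 and 2, against 0.603 and 0.499 in 7KC replicates 1 and 2. Behind these were 17, 9, 12 and 10 reads, and both 7KC libraries lay between the 2 control libraries. The log2 change was -0.01 (SE 0.22, 95% interval -0.58 to 0.55, limma adjusted p 0.979). Its sign turned on rescaling every library to an equal sum (0.09), and also if control replicate 1 (0.15) or 7KC replicate 2 (0.06) was left out.

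The receptor gene Cxcr2, which marks circulating neutrophils, was the lowest of the 6. Its FPKM was 0.368 and 0.178 in control replicates 1 and 2, against 0.410 and 0.280 in 7KC replicates 1 and 2, from 18, 7, 16 and 11 reads. The groups overlapped, and the 2 control libraries differed 2.07-fold between themselves. The difference of the group means of log2(FPKM + 0.5) was 0.13, and -0.04 without control replicate 2. It had no test with the filter, and its limma adjusted p was 0.746 with every gene kept.

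**Figure D2:**
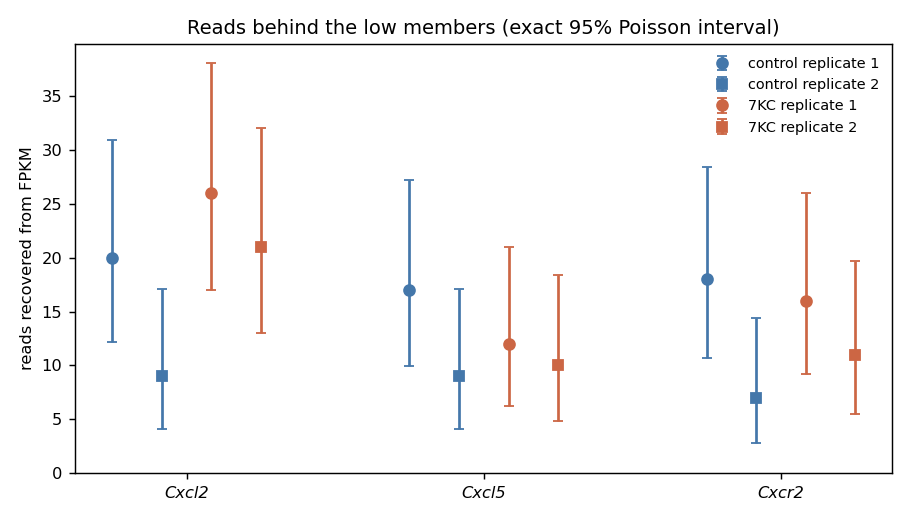
Reads recovered from the FPKM of Cxcl2, Cxcl5 and Cxcr2 in each library, with exact 95% Poisson intervals as bars and the y axis from 0. Each library has between 7 and 26 reads per gene, and the intervals of the 2 groups overlap in all 3 genes.

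The calprotectin genes were well above Cxcl2 in FPKM, and in 7KC replicate 2 they were above Cxcl1. The FPKM of S100a8 was 16.6 and 6.87 in control replicates 1 and 2, against 18.8 and 15.8 in 7KC replicates 1 and 2. The groups overlapped, because control replicate 1 lay above 7KC replicate 2. The 2 control libraries differed 2.42-fold and the 2 7KC libraries 1.19-fold. The log2 change was 0.66 (SE 0.40, 95% interval -0.35 to 1.66, limma adjusted p 0.436). This value rested on the control libraries: it was 1.26 without control replicate 1, where it passed the threshold (limma adjusted p 0.032), and 0.05 without control replicate 2.

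The FPKM of its partner S100a9 was 11.5 and 7.97 in control replicates 1 and 2, against 14.2 and 13.6 in 7KC replicates 1 and 2. The 7KC values were higher without overlap. The mean was 9.74 ± 2.52 FPKM (SD, n = 2) in the control group and 13.9 ± 0.404 FPKM (SD, n = 2) in the 7KC group, a ratio of 1.43. The log2 change was 0.51 (SE 0.19, 95% interval 0.03 to 0.99, limma adjusted p 0.257). Within libraries the ratio of S100a8 to S100a9 was 1.44 and 0.863 in the control group and 1.32 and 1.16 in the 7KC group, and the groups overlapped (exact permutation two-sided p 1). Both transcripts are short, with 486 to 519 annotated bases, and the reads behind the lowest values are estimated at no fewer than 27 for S100a8 and 34 for S100a9.

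The order of the 4 libraries differed between genes. Within each group, replicate 1 was above replicate 2 for all 6 genes, as for 27.4% of the tested genes. Control replicate 2 was the lowest library for 5 of the 6, as it was for 29.3% of the tested genes. For each of the 5 tested genes, the 3 genes of nearest profile over the 4 libraries were found by the root mean square difference of centred log2(FPKM + 0.5). For Cxcl2 these were Mansc1 (0.0164), Mxd1 (0.0215) and Rab19 (0.0447). For S100a9 they were Antxr2, Spc24 and Lasp1 (0.0276 to 0.0303), and for Cxcl1 they were Crb3, Spry4 and AW495222 (0.0350 to 0.0389). For S100a8 the nearest were H2-Eb2 (0.0758), Arhgef16 and Impa2, and only 3 genes lay within 0.1 of it. For Cxcl5 they were Dnajc4, Rfk and Zfp60, among 1168 genes within 0.1.

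The list of ELR chemokines and their receptors holds 9 genes, among them Cxcl1, Cxcl2, Cxcl5 and Cxcr2. Of these 5 were tested, 0 passed in either direction, and the median log2 change was -0.03, beside -0.03 over all tested genes. Without Cxcl1, Cxcl2 and Cxcl5 it was -0.12 over the 2 genes left. Ppbp, a platelet chemokine, had a log2 change of -0.03 (limma adjusted p 0.969), and Ackr1, a decoy receptor of endothelium and red cells, had -0.21 (limma adjusted p 0.833). Cxcl15 was listed at 0 in all libraries, and the second receptor gene Cxcr1 was listed at 0 in 3 libraries and at 0.0790 FPKM in 7KC replicate 2. The CXC chemokines and receptors outside this system had a median of 0.57 (11 genes tested), and 1 rose, against 0.48% of all tested genes. It was Cxcl9, a T-cell chemokine. Its FPKM was 29.0 and 22.3 in the control replicates and 221 and 159 in the 7KC replicates (log2 change 2.85, limma adjusted p 0.0244). The call on Cxcl9 was lost without a filter on low values (limma adjusted p 0.107), with the replicate number as a block (0.0767) and with 7KC replicate 1 (0.152) or 2 (0.122) left out. Cxcl10 (2.37, limma adjusted p 0.0534), Cxcr6 (1.13, 0.0606) and Cxcl16 (1.04, 0.0619) did not pass.

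Among the S100 family, 10 of 17 genes were tested and 0 passed. An unadjusted limma p under 0.05 was found for 4, against 17.8% of all tested genes. The median log2 change was 0.29, and 0.05 without S100a8 and S100a9. S100a4, found in monocytes, macrophages and fibroblasts, had a log2 change of 1.47 (limma adjusted p 0.138). S100a6 and S100a11 had 1.15 (limma adjusted p 0.122) and 1.10 (0.120). In these 3 genes the 7KC values were higher without overlap, as in 25.1% of all tested genes.

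Granule genes that mark neutrophils and their precursors were mostly near the detection limit. Of the 5 primary granule genes only Prtn3, a serine protease gene, was tested (log2 change 0.13, limma adjusted p 0.882). Of the others, the elastase gene Elane had 0.328 and 0.713 FPKM (control) against 0.308 and 0.306 FPKM (7KC). The cathepsin G gene Ctsg had 0.294 and 0.0912 FPKM in the control group and was listed at 0 in both 7KC libraries. Elane was lower without overlap, with nearest values of 0.328 and 0.308 FPKM, and Mpo overlapped. Ms4a3 was listed at 0 in control replicate 2 and 7KC replicate 2. Of the 9 secondary and tertiary granule genes 4 were tested and 0 passed. Their median log2 change was 0.77, beside -0.03 over all tested genes. An unadjusted limma p under 0.05 was found for 2 of the 4, against 17.8% of all tested genes. Lcn2, a siderophore-binding protein that hepatocytes also secrete in the acute phase, stood at 405, 267, 566 and 979 FPKM in control replicates 1 and 2 and 7KC replicates 1 and 2 (log2 change 1.18, limma adjusted p 0.175). Chil3, shared with macrophages, had 1.30 (limma adjusted p 0.0704), and Mmp9 had 0.36 (0.536) with overlapping groups. Camp, the cathelicidin gene, had -0.37 (limma adjusted p 0.380), and its 7KC values were lower without overlap. The 5 genes under the filter had no test. Ngp, the neutrophilic granule protein gene, had 0.734 and 0.455 FPKM (control) against 0.0765 and 0.0759 FPKM (7KC), a ratio of the means of 0.128. The reads behind the low values of these granule genes were not recovered. The lactoferrin gene Ltf had 0.183 and 0.142 FPKM against 0.0859 and 0.0284 FPKM, a ratio of 0.352. Both were lower without overlap, while Mmp8 and Mmp25, metalloproteinase genes at no more than 0.514 FPKM, were higher without overlap. Over all tested genes, 27.4% were lower and 25.1% higher without overlap. Genes under the filter, such as Elane, Ngp, Ltf, Mmp8 and Mmp25, are not part of these shares.

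Surface and cytosolic genes of neutrophils had a median log2 change of 0.64, beside -0.03 over all tested genes. Of 13 listed, 6 were tested, 0 passed and 4 had an unadjusted limma p under 0.05, against 17.8% of all tested genes. Fpr2, a formyl peptide receptor of neutrophils and macrophages, had an FPKM of 6.80 and 3.65 in the control replicates, against 24.8 and 22.6 in the 7KC replicates (log2 change 2.14, limma adjusted p 0.0523). Fpr1 and Csf3r, the receptor of granulocyte colony-stimulating factor, had 0.50 (limma adjusted p 0.108) and 1.18 (0.135). Wfdc21, the most abundant gene of the list, had 1360 and 1410 FPKM (control) against 1160 and 1000 FPKM (7KC), lower without overlap (log2 change -0.36, limma adjusted p 0.329). Fpr2 stood at no more than 24.8 FPKM, and which liver cells the Wfdc21 transcripts came from was not tested. Retnlg, a resistin-like gene of neutrophils, had 1.91 and 1.46 FPKM against 0.736 and 5.11 FPKM, and its groups overlapped. Trem3 had 0.625 and 0.431 FPKM against 1.30 and 1.21 FPKM, higher without overlap (log2 change 0.78, limma adjusted p 0.142). Under the filter, Il1r2 had 0.410 and 0.127 FPKM against 0.705 and 0.573 FPKM. Trem1 had 0.124 FPKM and a listed 0 in control replicates 1 and 2, against 0.258 and 0.281 FPKM. Stfa1, Stfa2 and Stfa3 were listed at 0 in all libraries, and Ly6g was not matched to a listed symbol.

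**Figure D3:**
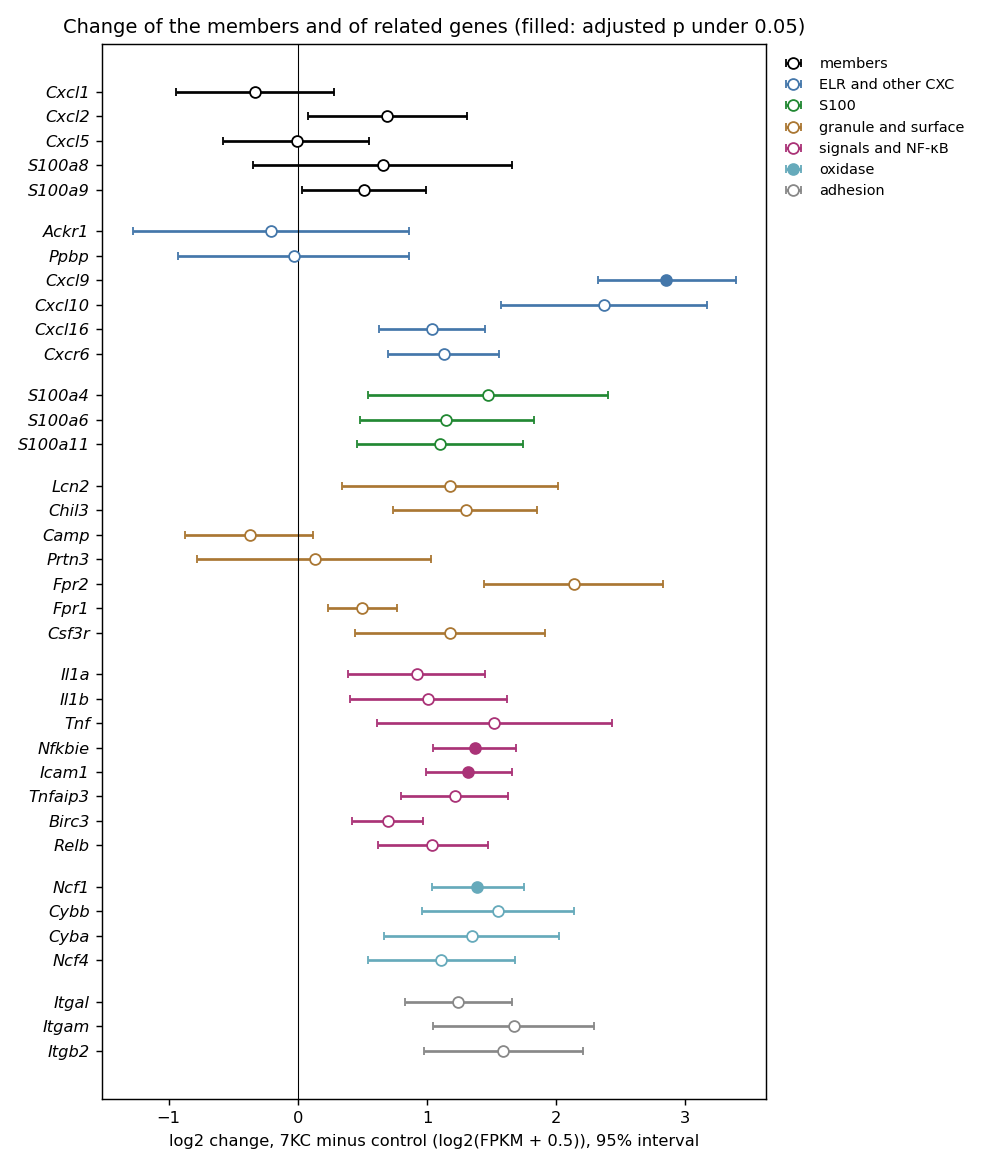
Log2 change (7KC minus control, on log2(FPKM + 0.5)) with limma 95% intervals for the 5 tested genes of the set, labelled members, and for related genes. Filled points passed an adjusted p under 0.05: they are Cxcl9, Nfkbie, Icam1 and Ncf1, and none of the 5 is among them. The sign of Cxcl5 turns on rescaling every library to an equal sum.

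Signals that induce these chemokines or mobilise neutrophils were then compared. Of 11 genes listed, 5 were tested and 0 passed, with a median log2 change of 0.92. Il1a, Il1b and Tnf, cytokines that switch on Cxcl1 and Cxcl2, had 0.92 (limma adjusted p 0.117), 1.01 (0.130) and 1.52 (0.127). The granulocyte colony-stimulating factor gene Csf3 and the Th17 cytokine gene Il17f were listed at 0 in all libraries, and Il17a was listed at 0 in 3 libraries and at 0.0751 FPKM in control replicate 2.

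Past the threshold, 0.48% of all tested genes were higher, and in the NF-κB and IL-17 response list 2 of 10 genes rose. They were Nfkbie, an inhibitor of NF-κB induced by it, at 1.37 on the log2 scale (SE 0.13, limma adjusted p 0.0313), and Icam1, an adhesion ligand of leukocyte integrins, at 1.32 (SE 0.13, limma adjusted p 0.034). Both calls were lost without a filter on low values (limma adjusted p 0.119 for each), with the replicate block (0.151 for each), and with control replicate 2 or either 7KC library left out (0.0779 to 0.242). The 7KC values were higher without overlap in all 10 genes, as in 25.1% of all tested genes, and the median was 0.75. Tnfaip3, Birc3 and Relb had 1.22 (limma adjusted p 0.0534), 0.70 (0.0619) and 1.04 (0.0648). Genes whose promoter windows hold GGGAATTTCC, the letters shown for Cxcl1 and Cxcl2, numbered 29, of which 13 were tested. Of these 1 rose, against 0.48% of all tested genes: Gbp5 (log2 change 2.62, limma adjusted p 0.0255). The median was -0.06. The call on Gbp5 was lost under the same settings as those on Nfkbie and Icam1 (limma adjusted p 0.0581 to 0.152). Nfkbia, the first feedback inhibitor of NF-κB, is also among the 13, with 0.33 (limma adjusted p 0.266).

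Receptors and partners of calprotectin had a median log2 change of 1.19 over 8 tested genes. Ncf1, a cytosolic subunit of the phagocyte oxidase to which calprotectin delivers arachidonic acid, rose with 1.39 (SE 0.14, limma adjusted p 0.0347). That call was lost under those settings too (limma adjusted p 0.0878 to 0.252), and those on Ncf1 and Icam1 also without a variance trend (0.0603 for each). Cybb, Cyba and Ncf4, other oxidase subunits, had 1.55 (limma adjusted p 0.0606), 1.35 (0.0949) and 1.11 (0.0979). In the rolling and adhesion list, 1 of 8 tested genes rose, against 0.48% of all tested genes. It was Icam1, already counted in the NF-κB and IL-17 response list, and the list median was 1.13. The integrin genes Itgal, Itgam and Itgb2, carried by neutrophils, monocytes and lymphocytes, had 1.24 (limma adjusted p 0.0523), 1.67 (0.0596) and 1.59 (0.0617).

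**Figure D4:**
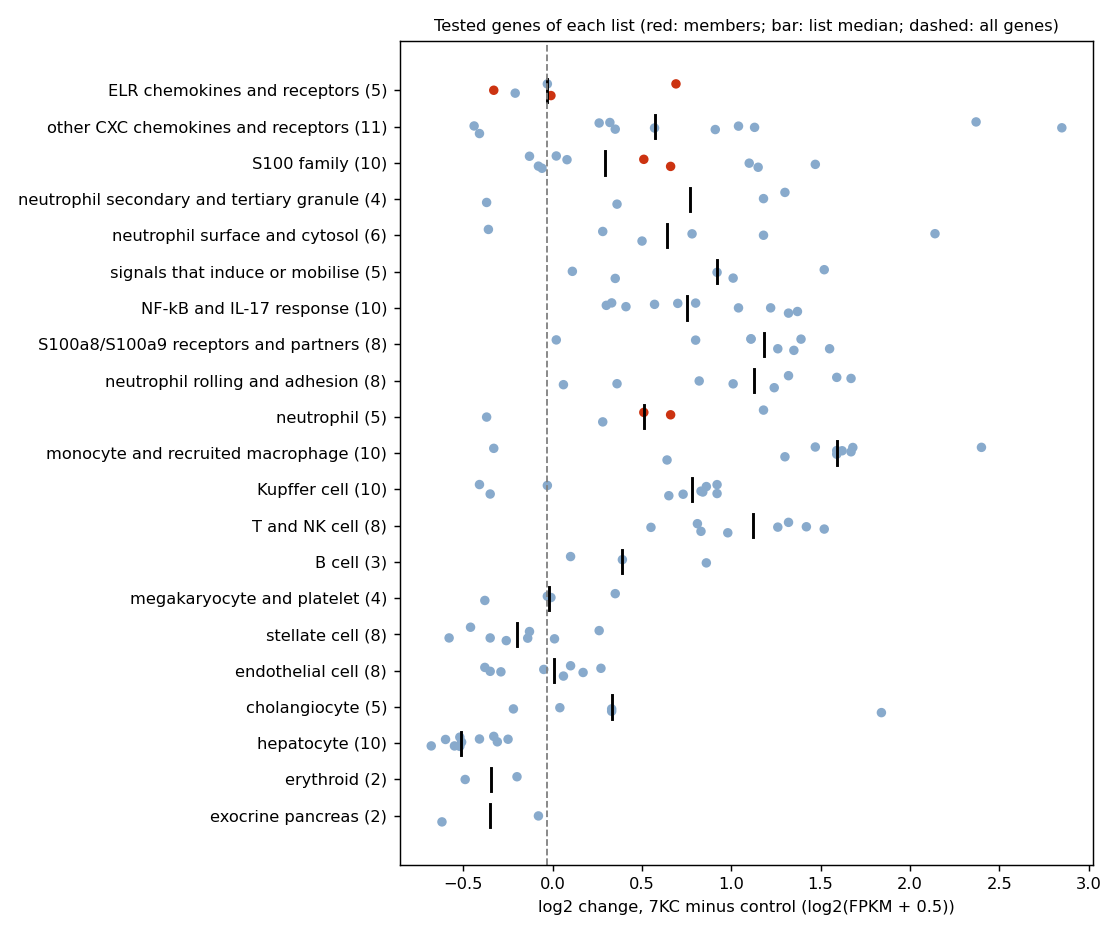
Log2 change of every tested gene in each list with at least 2 tested genes, with the number tested in parentheses, the list median as a black bar, the 6-gene set in red and the median of all tested genes as a dashed line. The neutrophil marker list has a median of 0.51 (0.28 without S100a8 and S100a9, over 3 genes), the monocyte and recruited macrophage list 1.59 and the hepatocyte list -0.51.

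No gene of the 12 cell type marker lists passed an adjusted p under 0.05 in limma. Over all tested genes, 25.1% were higher and 27.4% lower in the 7KC group without overlap. Levels of several lists differed between the groups, and their part in the values above was not tested. The neutrophil list, which holds 3 of the 6 genes, had 5 of 10 genes tested. Its summed FPKM was 36.0 and 20.1 in the control replicates, against 40.5 and 43.7 in the 7KC replicates, and none of its 9 matched genes was listed at 0 throughout. Without S100a8, S100a9 and Cxcr2 the sum was 7.52 and 5.09 (control) against 7.16 and 14 (7KC), and the groups overlapped. In the monocyte and recruited macrophage list all 10 genes were tested. The 7KC values were higher without overlap in 8 of the 10 and lower in 1, and its sum was 646 to 886 FPKM in the control group and 1440 to 2010 FPKM in the 7KC group. The Kupffer cell list had 6 of 10 genes higher without overlap and 2 lower, Vsig4 (log2 change -0.41) and Cd163 (-0.35), while Clec4f, a defining Kupffer cell gene, overlapped (-0.03). The T and NK cell list had 8 of 8 tested genes higher without overlap. The hepatocyte list, with a sum of 60500 to 71700 FPKM in the control group and 38900 to 51300 FPKM in the 7KC group, had 8 of 10 lower without overlap. The B cell, megakaryocyte and platelet, stellate cell, endothelial cell, cholangiocyte, erythroid and exocrine pancreas lists had medians of 0.39, -0.02, -0.20, 0, 0.33, -0.34 and -0.35.

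Ratios within a library do not depend on how that library is scaled. The 10 pairs compared were chosen after their values had been seen, and no exact permutation test on them can give a two-sided p under 0.33. The denominators Ly6c2, Cxcl10, Itgam and S100a4 had log2 changes of 2.4, 2.37, 1.67 and 1.47. These were larger than the changes of the genes set over them, so a lower mean ratio in the 7KC group followed from that choice. Against Ly6c2, a gene of inflammatory monocytes, the ratio of S100a8 was 1.5 and 1.28 (control) against 0.424 and 0.374 (7KC). That of S100a9 was 1.04 and 1.48 (control) against 0.321 and 0.323 (7KC). With Itgam as the denominator, S100a8 gave 9.03 and 5.28 (control) against 3.84 and 2.11 (7KC), and S100a9 gave 6.26 and 6.11 against 2.90 and 1.82. With S100a4, S100a8 gave 0.928 and 0.878 (control) against 0.554 and 0.466 (7KC), and S100a9 gave 0.643 and 1.02 against 0.419 and 0.402. In all 6 pairs the ratio was lower in the 7KC livers without overlap (exact permutation, two-sided p 0.33 for each, the smallest it allows).

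The ratio of Cxcl1 to Cxcl2 was 17.1 and 27.6 (control) against 10.1 and 7.71 (7KC), a log2 difference of -1.30. That of Cxcl1 to Cxcl10 was 1.84 and 2.16 (control) against 0.274 and 0.315 (7KC), so that Cxcl1 had the higher FPKM of the pair in the control livers and Cxcl10 in the 7KC livers. For Cxcl2 to Cxcl10 it was 0.107 and 0.0784 (control) against 0.0272 and 0.0409 (7KC). Each of these 3 ratios had an exact permutation two-sided p of 0.33.

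**Figure D5:**
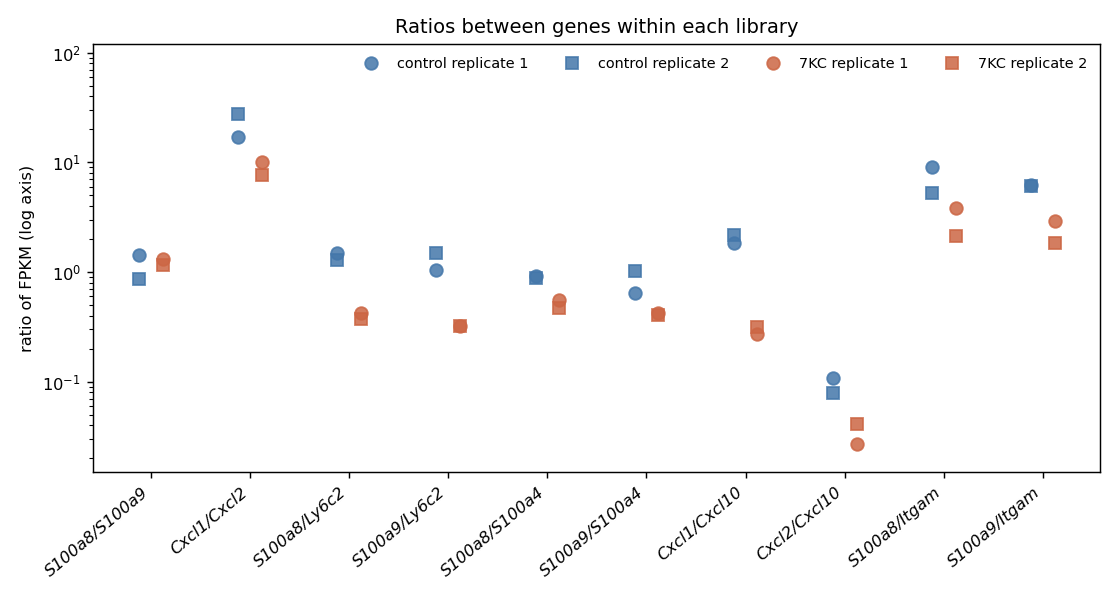
Ratios of FPKM between genes within each library, on a log axis, with control libraries in blue and 7KC libraries in orange. In 9 of the 10 pairs the 7KC libraries lie below the control libraries without overlap, and the ratio of S100a8 to S100a9 is the exception. The pairs were chosen after their values had been seen.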

How the data were processed

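RNA sequencing was performed on liver of the control and 7KC groups, 2 libraries each, grouped by the sample titles. Stranded mRNA libraries were sequenced as 75-base single-end reads. The authors mapped the reads to mm10 and deposited FPKM, 1 value per gene symbol and library. The submitters' processing notes name TopHat2 2.1.1, Bowtie2 2.2.8, SAMtools 0.1.18 and Cuffdiff 2.2.1, while the methods name Cufflinks and other versions. The annotation and the treatment of multi-mapped reads are not given in the sources used here.

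FPKM was tested as log2(FPKM + 0.5), on which changes of low genes are understated. A minimum mean of 0.5 FPKM left 12299 genes, which were fitted with limma 3.58.1 in R 4.3.3 (lmFit, eBayes with trend, group as the only term, 2 residual and 3.27 prior degrees of freedom). Benjamini-Hochberg adjustment ran over all tested genes. The fit was tested on simulated data. Depth was recovered from single-transcript genes over 1000 bases of GENCODE M21 with 200 bases taken off. Whole reads of single genes were accepted where 1 effective length fitted all 4 libraries within 0.1.

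The genes and lists were chosen with earlier results of these data known. The 10 pathway and 12 marker lists name 189 genes, of which 5 were not matched to a listed symbol. Named genes were the 6 genes, those past the threshold in each pathway list, and up to 3 more of smallest p. Others were named after their values were seen. Alternatives were another pseudocount, filter, scaling or prior, the replicate number as a block, and leaving out each library.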

Additional observations from a re-analysis of the deposited data

How the results depend on the processing

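The 62 genes past the threshold became 115 with a pseudocount of 1 FPKM, 98 with median-ratio scaling, 405 with libraries rescaled to the same sum, 40 without a variance trend and 1, a lower gene, without a filter on low values. With the replicate block there were 0 by limma (1851 at an unadjusted p under 0.05), and with the crossed pairing, added after seeing the data, 588. Leaving out 1 library gave 4 to 441: 441 and 23 with control replicate 1 or 2 left out, and 5 and 4 with 7KC replicate 1 or 2 left out. The replicate numbers are not stated to mark a shared batch. Deviations of same-numbered libraries correlated at -0.14 and those of crossed numbers at 0.14, which must mirror each other with 2 libraries per group. The replicate block gave no call among the tested genes of the set, but none had a call without it. Neither result can show whether a batch was present. Cxcl1 ran from -0.67 (without 7KC replicate 1) to 0.01 (without 7KC replicate 2), Cxcl5 from -0.17 to 0.15 (0.06 without 7KC replicate 2), and S100a8 from 0.05 to 1.26, with each library left out. Rescaling to the same sum turned Cxcl5 to 0.09 and moved the median of all tested genes from -0.03 to 0.16. Cxcl2 (0.41 to 0.97) and S100a9 (0.26 to 0.76) kept their sign throughout. Their groups did not overlap, so leaving out 1 library could not turn it. With every library kept, their limma adjusted p ran from 0.134 to 0.313 and from 0.108 to 0.327. Where an arm kept 1 library, it was assumed to vary like the other group. A minimum mean of 1 FPKM left no value for Cxcl5. The cause of these shifts was not tested. Depth limits Cxcl2, Cxcl5 and Cxcr2, whose counting error alone is 19.6% to 37.8% of the value.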
